A study of Mus musculus with 10 samples.

Results

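Fibroblast growth factors (FGFs) and their receptors were followed through mouse nephron progenitors, the cells of the developing kidney that give rise to nephrons, and through cultures grown from them. The set held 7 ligands (Fgf1, Fgf2, Fgf7, Fgf8, Fgf9, Fgf10 and Fgf20) and 3 receptors (Fgfr1, Fgfr2 and Fgfr3). They were found by the gene name that the array design gives each probe, and they had 20 of the 55681 probes on the array and 10 of its 34607 gene names. RNA was measured on 10 single-colour Agilent arrays, 2 for each of 5 groups. All cells came from Six2-GFP transgenic mice on a C57BL6J/ICR background, in which a green fluorescent protein marks cells that use Six2, a transcription factor of uncommitted nephron progenitors. P0 progenitors were GFP-positive cells and P0 non-progenitors GFP-negative cells sorted at birth. E11.5 progenitors were GFP-positive cells sorted at that embryonic stage, and the 8-day and 19-day cultures held such E11.5 cells after 8 or 19 days in conditioned medium. The labels give the tissue only as embryo. Nothing in them tells whether the cells were sorted a second time after culture, whether animals were pooled, or whether the 2 arrays of a group came from separate litters or cultures, so the p-values measure the spread between these arrays, which may be technical. The 4 samples labelled P0 carry E19.5 in their data names, and the labels were followed.

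FGFs are secreted or released proteins that bind, together with heparan sulfate chains on the cell surface, to receptor tyrosine kinases, which then start the RAS and MAP kinase cascade. In the embryonic kidney, Fgf9 and Fgf20 signals keep nephron progenitors alive and uncommitted, Fgf8 is needed in the early nephron, and Fgf7 and Fgf10 from surrounding mesenchyme act on the branching ureteric bud. Fgfr1 and Fgfr2 in the metanephric mesenchyme are needed together for the kidney to form.

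Values below are log2 intensities minus the array's 75th percentile, so that 0 is the signal of a spot at that percentile and 1 unit is a factor of 2. A probe's level can be compared between arrays but not with the level of another probe. Orders of single arrays over all groups are given below as descriptions. The share of all genes with such an order was not counted. Between 60.4% and 69.8% of the 59305 non-control spots of an array were well above background, no spot was saturated, and precision is limited by the number of arrays. The labelled cell types were checked with a list of 8 nephron progenitor markers, whose mean was 3.99 and 3.82 in P0 progenitors, 1.12 and 0.51 in P0 non-progenitors, 3.68 and 4.13 in E11.5 progenitors, 1.20 and 1.70 in the 8-day culture and -0.93 and -0.48 in the 19-day culture. Six2 itself read 4.27 and 4.11 in P0 progenitors, -2.26 and -4.55 in P0 non-progenitors, 4.70 and 4.82 in E11.5 progenitors, 5.21 and 4.61 in the 8-day culture and 1.06 and 2.32 in the 19-day culture. The progenitor labels thus went with the markers in the sorted cells, while the 19-day culture was low for the list and the 8-day culture kept Six2 but not the mean of the list. The sorted samples and replicate 1 of the 8-day culture lay on slide 1 and the remaining 3 cultured samples on slide 2. Only the 8-day pair was split over the slides.

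Several genes were read by more than 1 probe, and the sequences matter because the probes of a gene did not always move together. The 2 probes of Fgf20 are shown where they overlap, on the minus strand of mm9 at chr8:41365111-41365138, because they share 28 bases and are not independent readings. They differ there at 1 base, G23T, counted from 1 at the 5′ end of the overlap, with the base of A_55_P2169499 given first and that of A_55_P2180059 second, and that base is in capitals.
Fgf20 A_55_P2180059: caaagacctactgatgtacactTgatga
Fgf20 A_55_P2169499: caaagacctactgatgtacactGgatga
For Fgfr1 and Fgf8 a stretch of the probe with the highest mean and a second probe of the gene are shown, with runs of 3 or more T in capitals. The stretches of Fgfr1 lie on the plus strand at chr8:26685830-26685859 and chr8:26684061-26684120, and those of Fgf8 on the minus strand at chr19:45811355-45811384 and chr19:45811668-45811727.
Fgfr1 A_55_P1967015: ggTTTgTTTTTgTTTTTTgTTTgTTTgTTT
Fgfr1 A_55_P1967022: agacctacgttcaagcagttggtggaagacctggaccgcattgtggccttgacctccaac
Fgf8 A_55_P2101508: ttgtgcatattgTTTgctgttgggTTTTTT
Fgf8 A_55_P2108109: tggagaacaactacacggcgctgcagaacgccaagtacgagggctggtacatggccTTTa
The whole Fgfr1 probe A_55_P1967015 is 60% T and 90% G or T, while the median probe on the array is 28.3% T, and 0.0341% of probes hold as much T. The Fgf8 probe A_55_P2101508 is 76.7% G or T. The group means of these 2 probes spanned 0.64 log2 units each. Of 26794 probes above background on all arrays, 157 have a share of G and T at least that of the Fgf8 probe, a limit chosen after the values were seen, and 81.5% of them had group means within 1 log2 unit, against 44.4% of all 26794. The median span was 0.62 for the 157 and 1.09 for all. The 157 were also brighter, with a median level of 3.01, against -0.12 for all. The parts of base composition and of signal level in the flat readings of Fgfr1 and Fgf8 were not tested. Whether a probe lies in coding sequence or in a UTR was not annotated here.

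Fgf20, a ligand of the Fgf9 subfamily that nephron progenitors themselves make, had the widest span of group means among the tested members. It read 0.95 and 0.07 in P0 progenitors, -6.61 and -6.32 in P0 non-progenitors, 0.19 and -0.55 in E11.5 progenitors, -5.67 and -1.30 in the 8-day culture and -6.86 and -6.89 in the 19-day culture. It was well above background on every progenitor array and on 8-day culture replicate 2, and not well above background on the other 5 arrays. The P0 progenitor intensities were 472.2 and 267.0, against 3.05 and 3.47 in P0 non-progenitors. The second Fgf20 probe gave the same pattern, with -0.19 and -1.05 in P0 progenitors, -4.50 and -6.05 in P0 non-progenitors, -1.05 and -1.63 in E11.5 progenitors, -6.18 and -2.65 in the 8-day culture and -6.71 and -6.43 in the 19-day culture. Both probes put 8-day culture replicate 2 above replicate 1. In the order of group means, P0 progenitors stood above E11.5 progenitors and these above the 8-day culture, P0 non-progenitors and the 19-day culture, and no neighbouring pair in that order passed the test (adjusted p = 0.803, 0.18, 0.161 and 0.86).

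Fgf9, the partner ligand of Fgf20 that the ureteric bud and progenitors both make, had a different distribution. It read -4.19 and -6.45 in P0 progenitors, -2.49 and -1.60 in P0 non-progenitors, -6.52 and -6.48 in E11.5 progenitors, -6.33 and -6.64 in the 8-day culture and -6.94 and -6.99 in the 19-day culture. It was well above background on both P0 non-progenitor arrays and on P0 progenitor replicate 1, and not well above background on the other 7 arrays. A gene was tested where both arrays of at least 1 group were above background, and Fgf9 met this only in P0 non-progenitors. Fgf9 was also highest there, so its calls against that group are not independent of the filter. Only the step between P0 non-progenitors and P0 progenitors separated neighbours in its order of group means (adjusted p = 0.0367), and against P0 non-progenitors it was at least 4.52-fold lower in E11.5 progenitors (adjusted p = 0.00662), at least 4.45-fold lower in the 8-day culture (adjusted p = 0.00754) and at least 6.19-fold lower in the 19-day culture (adjusted p = 0.00766). The 19-day arrays lay on another slide than the P0 arrays. The single Fgf9 probe lies at chr14:58728897-58728956 (mm9).

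**Figure D1:**
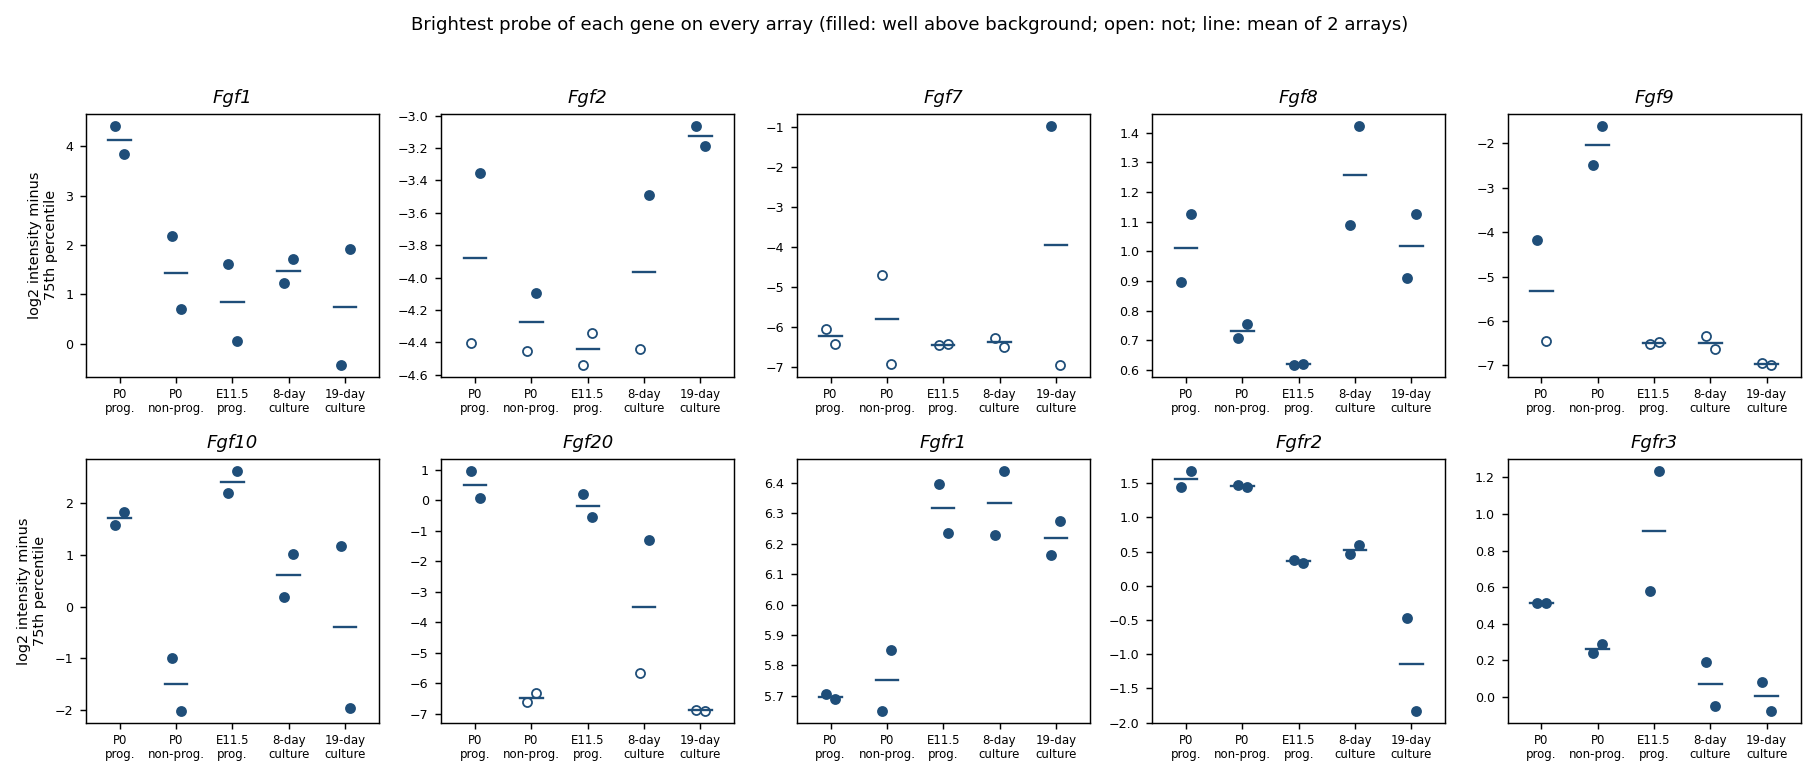
Signal of each gene's probe with the highest mean on every array (vertical axes, log2 intensity minus the array's 75th percentile, with a scale of its own in each panel) in P0 progenitors, P0 non-progenitors, E11.5 progenitors, 8-day culture and 19-day culture. Points are arrays, filled where well above background, and lines are means of 2 arrays; Fgf20 is filled on both arrays of both progenitor groups, Fgf9 on both P0 non-progenitor arrays and Fgf7 on 1 array of the 19-day culture.

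Fgf10, which in the kidney signals to the ureteric bud through a splice form of Fgfr2, was above background on all 10 arrays. It read 1.58 and 1.84 in P0 progenitors, -1.0 and -2.02 in P0 non-progenitors, 2.21 and 2.62 in E11.5 progenitors, 0.20 and 1.01 in the 8-day culture and 1.17 and -1.97 in the 19-day culture. All 4 sorted progenitor arrays were above all other arrays, and the 19-day pair differed by more than 3 units. Fgf10 was higher in E11.5 progenitors than in P0 non-progenitors (log2 change 3.92 ± 0.91 SE, adjusted p = 0.0244), while no neighbours in its order of group means passed.

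Fgf1, a ligand that lacks a classical secretion signal, had its highest readings in newborn progenitors. Its probe with the highest mean read 4.43 and 3.84 in P0 progenitors, 2.19 and 0.69 in P0 non-progenitors, 1.62 and 0.06 in E11.5 progenitors, 1.22 and 1.72 in the 8-day culture and -0.43 and 1.91 in the 19-day culture. Its other probe read -1.75 and -1.73 in P0 progenitors, -3.76 and -2.79 in P0 non-progenitors, -3.01 and -4.13 in E11.5 progenitors, -3.14 and -2.73 in the 8-day culture and -2.52 and -2.54 in the 19-day culture. On both probes the 2 P0 progenitor arrays were above the other 8. By the first probe P0 progenitors did not pass against P0 non-progenitors (adjusted p = 0.113), E11.5 progenitors (0.0886) or the 8-day culture (0.143). The 19-day culture was lower than P0 progenitors by the first probe (log2 change -3.39 ± 0.86 SE, adjusted p = 0.0435), and with a term for slide this was not passed (log2 change -3.89 ± 1.60 SE, adjusted p = 0.252).

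Fgf8 depended on the probe. The probe A_55_P2101508, rich in G and T, ranged from 0.62 to 1.42 over the 10 arrays. The probe A_55_P2108109 read -1.79 and -2.53 in P0 progenitors, -3.73 and -2.66 in P0 non-progenitors, -2.64 and -1.45 in E11.5 progenitors, -0.60 and -1.12 in the 8-day culture and -3.17 and -2.92 in the 19-day culture. By this probe the 8-day culture was above every other array. The third probe, A_55_P2101506, ranged from -5.05 to -1.36, with both extremes in E11.5 progenitors, and ordered the groups differently. No Fgf8 probe passed in any of the 5 comparisons.

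Fgf2, a ligand much used to grow progenitors in culture, was near the background limit. Its probe A_51_P399845, printed in 10 spots, read -4.40 and -3.35 in P0 progenitors, -4.45 and -4.10 in P0 non-progenitors, -4.54 and -4.34 in E11.5 progenitors, -4.44 and -3.49 in the 8-day culture and -3.06 and -3.19 in the 19-day culture. Both 19-day arrays were above the other 8. Fgf2 met the filter for testing only in the 19-day culture, so its tests against that group are not independent of the filter. Its second probe was not well above background on any array. Fgf7, a mesenchymal ligand close to Fgf10, was well above background only on 19-day culture replicate 1, where it read -0.96, against -6.94 on replicate 2, and between -6.92 and -4.68 on the arrays of the other 4 groups. It was therefore the 1 member that was not tested, and 9 members of 10 were.

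Fgfr1, a receptor present in progenitors and in surrounding tissue, depended most on the probe. The T-rich probe A_55_P1967015 had the highest mean and stands for the gene in the tests between groups. It read 5.71 and 5.69 in P0 progenitors, 5.65 and 5.85 in P0 non-progenitors, 6.40 and 6.24 in E11.5 progenitors, 6.23 and 6.44 in the 8-day culture and 6.16 and 6.28 in the 19-day culture. The probe A_55_P1967022 read 5.15 and 5.24 in P0 progenitors, 3.46 and 3.46 in P0 non-progenitors, 4.70 and 5.58 in E11.5 progenitors, 2.84 and 2.61 in the 8-day culture and 3.46 and 2.94 in the 19-day culture. The probe A_55_P2057777 read 2.85 and 2.31 in P0 progenitors, 0.18 and 0.54 in P0 non-progenitors, 1.89 and 2.29 in E11.5 progenitors, 0.14 and -1.32 in the 8-day culture and 0.98 and -0.44 in the 19-day culture. On A_55_P1967022 and A_55_P2057777 all 4 sorted progenitor arrays were above all 6 other arrays, which the T-rich probe did not show.

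Fgfr2, the receptor that mesenchyme and ureteric bud both use in different splice forms, was read by 2 probes that share 42 bases without a difference. The first read 1.45 and 1.67 in P0 progenitors, 1.47 and 1.45 in P0 non-progenitors, 0.38 and 0.33 in E11.5 progenitors, 0.46 and 0.59 in the 8-day culture and -0.46 and -1.83 in the 19-day culture. The second read -0.40 and -0.25 in P0 progenitors, -0.41 and -0.36 in P0 non-progenitors, -1.30 and -1.83 in E11.5 progenitors, -1.85 and -1.21 in the 8-day culture and -2.81 and -5.38 in the 19-day culture. Both probes put the newborn cells of both sorts highest and the 19-day culture lowest. By the first probe the 19-day culture was lower than P0 progenitors (log2 change -2.71 ± 0.41 SE, adjusted p = 0.00723) and P0 non-progenitors (log2 change -2.61 ± 0.41 SE, adjusted p = 0.00911). The 19-day arrays lay on slide 2 and the P0 arrays on slide 1, so group and slide cannot be told apart in these calls.

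Fgfr3, a receptor best known as a brake on bone growth, varied little by its first probe, which read 0.52 and 0.52 in P0 progenitors, 0.24 and 0.29 in P0 non-progenitors, 0.58 and 1.23 in E11.5 progenitors, 0.19 and -0.05 in the 8-day culture and 0.08 and -0.07 in the 19-day culture. All 4 sorted progenitor arrays were above the other 6. The other 2 probes ranged from -1.67 to 1.12 and from -2.54 to -1.78 and did not give that order. No Fgfr3 probe passed in any of the 5 comparisons.

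**Figure D2:**
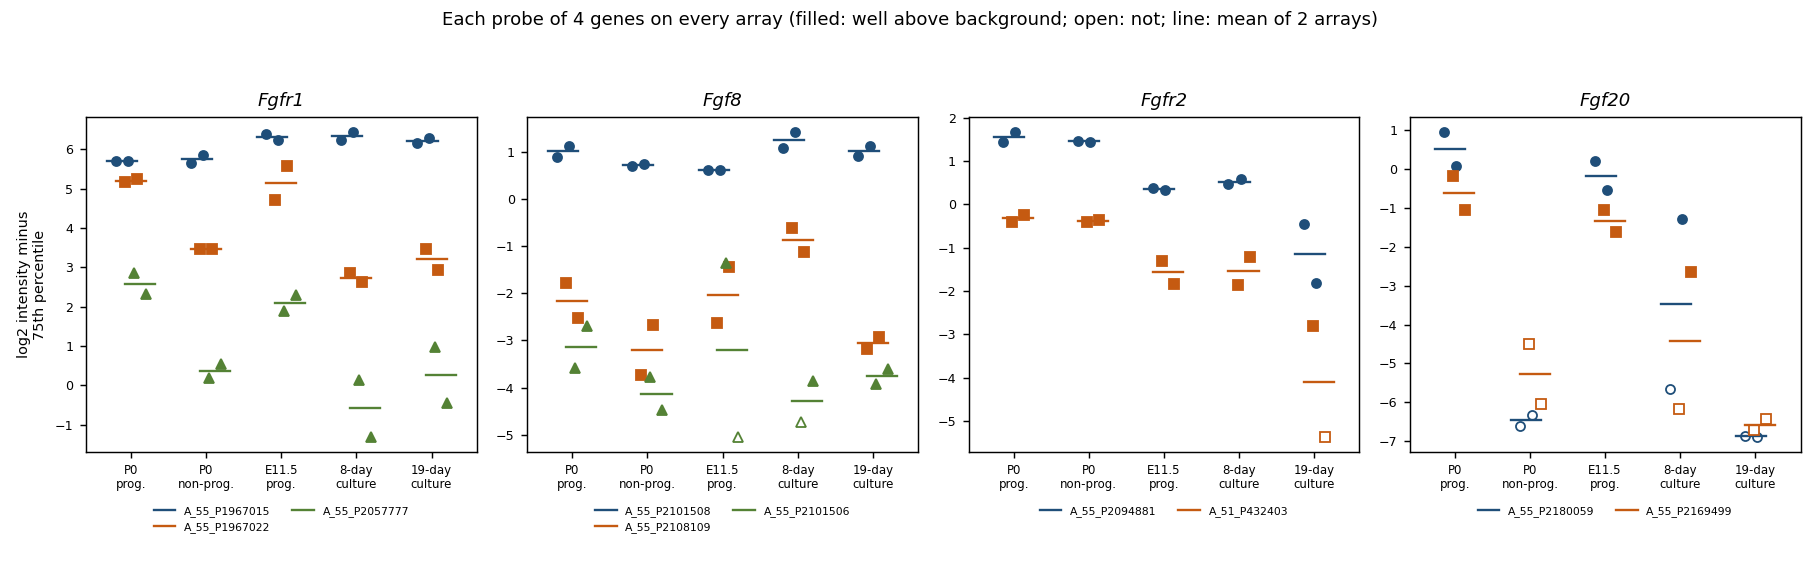
Signal of every probe of Fgfr1, Fgf8, Fgfr2 and Fgf20 on each array (vertical axes, log2 intensity minus the array's 75th percentile) in P0 progenitors, P0 non-progenitors, E11.5 progenitors, 8-day culture and 19-day culture. Colours and shapes are probes, filled points are well above background, and lines are means of 2 arrays; Fgfr1 A_55_P1967015 and Fgf8 A_55_P2101508 stay within 0.64 log2 units between group means while other probes of these genes move.

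What sets progenitors apart from other newborn kidney cells was the question of the comparison of P0 progenitors with P0 non-progenitors. Fgf20 was at least 33.2-fold higher in P0 progenitors, the background limit of the P0 non-progenitor arrays standing in for their signal (fitted log2 change 6.97 ± 1.21 SE, adjusted p = 0.0149, higher on 2 of 2 arrays). Fgf20 met the filter for testing only in P0 and E11.5 progenitors, where it was also highest. Its calls for these groups are thus not independent of the filter. In these sorted bulk samples, fewer cells of a type and less RNA per cell cannot be told apart. Fgf9 was lower in P0 progenitors (fitted log2 change -3.27 ± 0.74 SE, adjusted p = 0.0367), but with 1 of the 2 P0 progenitor arrays not well above background the size is not well measured. Fgf9 also entered the test only through P0 non-progenitors. With low values raised to the background limit the log2 change was -2.13 (adjusted p = 0.00718), and with normexp background correction -0.89 (adjusted p = 0.0375). Thus 1 tested member was higher, 1 was lower and 7 did not pass, where 8.38% of all 26250 tested genes were called, 4.23% higher and 4.15% lower. Fgf10 (log2 change 3.22 ± 0.91 SE, adjusted p = 0.078) and Fgf1 (log2 change 2.69 ± 0.86 SE, adjusted p = 0.113) had groups that did not overlap, which was so for 56% of all genes. The remaining log2 changes were 0.40 for Fgf2, 0.28 for Fgf8, -0.05 for Fgfr1, 0.10 for Fgfr2 and 0.25 for Fgfr3, with SEs of 0.12 to 0.50 and adjusted p-values of 0.566 to 0.936.

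Probe by probe, Fgfr1 was higher in P0 progenitors by A_55_P1967022 (3.34-fold, log2 change 1.74 ± 0.29 SE, adjusted p = 0.0149), in a test in which 7.09% of all 39815 probes were called. A_55_P2057777 gave a log2 change of 2.22 ± 0.59 SE (adjusted p = 0.072). The mean of the 3 probes gave 1.3 ± 0.26 SE (adjusted p = 0.0209). The second Fgf20 probe was also called, at least 15.2-fold higher (adjusted p = 0.0462).
Without any 1 of the 4 arrays compared, the Fgf20 call was lost, at log2 changes of 6.53 to 7.41. That of A_55_P1967022 was lost too, at log2 changes of 1.69 to 1.78. Such fits leave 1 array in a group. The Fgf9 call was lost without any 1 array other than P0 progenitor replicate 1, with log2 changes between -4.40 and -2.14 and adjusted p up to 0.181. It was also lost with quantile normalization (adjusted p = 0.0518), the slide block (0.0569), slide 1 alone (0.0848) and only the groups compared (0.0989). The Fgf10 change was called without 19-day culture replicate 1 (adjusted p = 0.0107) or replicate 2 (adjusted p = 0.0104), at the same log2 change.

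Among other genes of the pathway, 2 of 10 feedback and target genes rose in P0 progenitors, 0 fell and 8 did not pass. Etv4, a transcription factor that FGF signals induce, read 4.29 and 3.95 in P0 progenitors, against 1.65 and 2.09 in P0 non-progenitors (log2 change 2.25 ± 0.41 SE, adjusted p = 0.0171). Il17rd, a membrane protein that dampens FGF signals, read 5.13 and 5.22 in P0 progenitors, against 2.60 and 3.22 in P0 non-progenitors (log2 change 2.26 ± 0.39 SE, adjusted p = 0.0146). The list's median log2 change was 0.72, against 0.10 over all genes. All 3 tested genes of the other receptors and coreceptors were called. Fgfrl1, a receptor without a kinase domain, was 2.61-fold higher (adjusted p = 0.00527), Fgfr4 was 4.90-fold lower (adjusted p = 0.0182) and Kl, the coreceptor of Fgf23, was at least 4.31-fold lower (adjusted p = 0.00281). Their median was -2.29, and the fourth gene, Klb, was not tested.

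Of 23 carriers and heparan sulfate enzymes, 5 rose, 2 fell and 16 did not pass (median -0.09). Sulf1, which removes sulfate from heparan sulfate, rose by 3.84 on the log2 scale (adjusted p = 0.0308) and Hs6st2, which adds it, by 3.32 (adjusted p = 0.00543). Fgfbp1, a secreted FGF carrier, fell by 2.52 (adjusted p = 0.00548) and the glypican Gpc4 by 1.75 (adjusted p = 0.00308). None of 16 adaptors and transducers (median 0.10) and none of 11 tested FGF ligands outside the set (median 0.62) was called by limma, and 4 further ligands were not tested. Means of all 7 lists of other cell types were lower on both P0 progenitor arrays. The mean of 5 proximal tubule markers was -2.88 and -3.47 in P0 progenitors, against 2.72 and 2.85 in P0 non-progenitors, that of 8 ureteric bud and collecting duct markers -1.29 and -2.46 against 1.29 and 0.73, and that of 7 stromal markers -1.03 and -0.89 against 2.43 and 2.57. All markers of these 3 lists were above background on both P0 non-progenitor arrays, while 3 to 4, 5 to 7 and 6 were on a P0 progenitor array, and the ureteric bud receptor Ret was on neither. Their part in the differences of Fgf9, Kl and Fgfr4 was not tested.

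Progenitors at birth were next set against progenitors at E11.5. Of 9 tested members 1 was called, as lower, where 3.95% of all genes were called, 2.03% higher and 1.92% lower. The one call was that of Fgfr1 by its T-rich probe, 1.54-fold lower in P0 progenitors (log2 change -0.62 ± 0.12 SE, adjusted p = 0.033). The other Fgfr1 probes, in a test that called 3.47% of all probes, gave 0.06 ± 0.29 SE (adjusted p = 0.941) and 0.49 ± 0.59 SE (adjusted p = 0.723), and the mean of the 3 probes gave -0.02 (adjusted p = 0.974), so no direction for the gene holds over its probes. Fgf1 was 9.81-fold higher on the means without passing (log2 change 3.29 ± 0.86 SE, adjusted p = 0.0886), and passed as the mean of its 2 probes (2.56 ± 0.53 SE, adjusted p = 0.0469). Fgfr2 was 2.30-fold higher on the means (log2 change 1.20 ± 0.41 SE, adjusted p = 0.167). It passed without 19-day culture replicate 1 (adjusted p = 0.0428) or replicate 2 (adjusted p = 0.0402), at the same log2 change. Fgf20 gave 0.69 ± 1.21 SE (adjusted p = 0.803), an error that leaves room for a change of several fold either way. The log2 changes of Fgf2, Fgf8, Fgf9, Fgf10 and Fgfr3 were 0.56, 0.39, 1.18, -0.71 and -0.39, with adjusted p-values between 0.402 and 0.725. Without any 1 of the 4 arrays compared the Fgfr1 call was lost (log2 changes of -0.70 to -0.54, adjusted p up to 0.178).

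Of the feedback and target genes 0 rose, 1 fell and 9 did not pass (median -0.05, against -0.12 over all genes). Dusp6, a phosphatase that switches off MAP kinases, read 3.91 and 3.93 in P0 progenitors, against 5.42 and 5.09 in E11.5 progenitors (log2 change -1.34 ± 0.14 SE, adjusted p = 0.00647). Il17rd gave 1.58 ± 0.39 SE without passing (adjusted p = 0.0755). Of the carriers 5 rose, 0 fell and 18 did not pass (median 0.50). They were led by Flrt2, a membrane protein of the family that binds FGF receptors (log2 change 3.17, adjusted p = 0.022), the syndecan Sdc4 (2.72, adjusted p = 0.028), the sulfotransferase Hs6st1 (2.54, adjusted p = 0.0289) and Gpc4 (1.52, adjusted p = 0.0105). Flrt2 was above background on 1 of the 2 E11.5 arrays. No tested gene was called among 11 other ligands (median -0.18), 3 other receptors (median -0.07) and 16 adaptors (median -0.09).

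**Figure D3:**
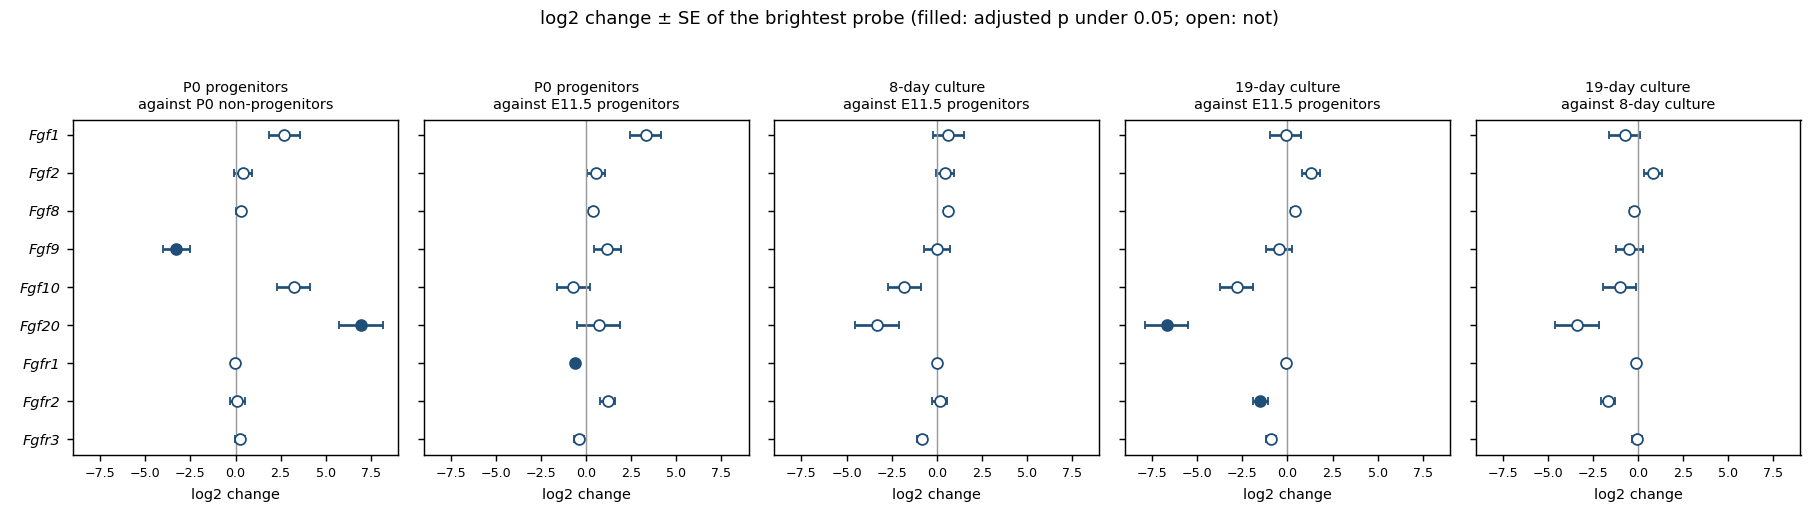
Change of the 9 tested members in the 5 comparisons (horizontal axes, log2 change with the group named first over the group named second; bars, SE of the fit over 10 arrays, n = 2 arrays a group). Filled points passed an adjusted p of 0.05; Fgf20 is far to the right for P0 progenitors against P0 non-progenitors and far to the left for the 19-day culture against E11.5 progenitors.

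What culture does to E11.5 progenitors was asked first at 8 days. By limma 0 of 9 members were called, where 4.8% of all genes were called, 2.76% higher and 2.04% lower. An unadjusted p under 0.05 was found for 3 members, and the share of all genes at that looser limit was not counted. Fgf20 averaged -3.48 in the 8-day culture and -0.18 in E11.5 progenitors (log2 change -3.30 ± 1.21 SE, adjusted p = 0.18), and its 8-day arrays were on different slides. Fits with a term for slide, on slide 1 alone or without 8-day culture replicate 2 all come down to 8-day culture replicate 1, which was not well above background, against E11.5 progenitors. They called Fgf20 (adjusted p = 0.0145, 0.0259 and 0.0151) with 1 array in the culture arm, assumed to vary like the other groups, and their size is not measurable below background. Without 8-day culture replicate 1 the log2 change was -1.12 (adjusted p = 0.362). Of the other ligands, Fgf10 gave -1.81 ± 0.91 SE (adjusted p = 0.327), Fgf8 0.64 ± 0.22 SE (adjusted p = 0.164), Fgf1 0.63 (adjusted p = 0.762), Fgf2 0.47 (adjusted p = 0.681) and Fgf9 0.01, not above background in either group.

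Of the receptors, Fgfr1 was 5.32-fold lower in the 8-day culture by A_55_P1967022 (log2 change -2.41 ± 0.29 SE, adjusted p = 0.0092), in a test that called 4.48% of all probes. That call was kept without any 1 array (log2 changes of -2.85 to -1.97, adjusted p up to 0.0434), and within slide 1 the change was -2.30 (adjusted p = 0.0528). A_55_P2057777 gave -2.68 ± 0.59 SE (adjusted p = 0.0506), the mean of the 3 probes -1.69 ± 0.26 SE (adjusted p = 0.0169), and the T-rich probe 0.02 ± 0.12 SE (adjusted p = 0.964). Fgfr2 gave 0.17 ± 0.41 SE (adjusted p = 0.881) and Fgfr3 -0.84 ± 0.28 SE (adjusted p = 0.142). Six2 gave 0.15 ± 0.71 SE (adjusted p = 0.945). Of the 8 nephron progenitor markers 2 were lower in the 8-day culture, and of the 7 stromal markers 3 were higher and 1 lower, the stromal mean being 0.48 and 0.32 in the 8-day culture, against 0.01 and -0.10 in E11.5 progenitors. Their part in the lower reading of Fgfr1 by A_55_P1967022 was not tested.

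In the same comparison Fgf5, a ligand outside the set, was at least 6.45-fold higher in the 8-day culture, the 1 call among 11 other ligands (median 0.02, adjusted p = 0.0457). It read -0.58 and -2.49 in the 8-day culture, against -5.56 and -5.53 in E11.5 progenitors. Of the feedback and target genes 1 rose, 0 fell and 9 did not pass (median 0.60, against 0.02 over all genes). That 1 was Dusp6, with 6.02 and 6.13 in the 8-day culture, against 5.42 and 5.09 in E11.5 progenitors (log2 change 0.82 ± 0.14 SE, adjusted p = 0.0265). Of the carriers 3 rose, 2 fell and 18 did not pass (median 0.11). Flrt1 fell by 3.82 (adjusted p = 0.0336) and the sulfatase Sulf2 by 1.74 (adjusted p = 0.0321), while Flrt2 rose by 2.86 (adjusted p = 0.0292) and Gpc4 by 1.85 (adjusted p = 0.00546). None of 3 other receptors (median -0.03) and none of 16 adaptors (median -0.05) was called.

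After 19 days, against E11.5 progenitors, 2 of 9 tested members were called, both lower, where 16.8% of all genes were called, 7.23% higher and 9.59% lower. Fgf20 was at least 22.6-fold lower in the 19-day culture (fitted log2 change -6.70 ± 1.21 SE, adjusted p = 0.0101), and its second probe at least 10.1-fold lower (adjusted p = 0.018). Fgf20 entered the test only through the progenitor groups, so these calls are not independent of the filter. The level of Fgfr2 was lower by a factor of 2.83 (log2 change -1.50 ± 0.41 SE, adjusted p = 0.045), and its second probe gave -2.53 ± 0.75 SE (adjusted p = 0.0622). Fgfr1 was 3.83-fold lower by A_55_P1967022 (log2 change -1.94 ± 0.29 SE, adjusted p = 0.00554), in a test that called 15.4% of probes, and gave -1.82 ± 0.59 SE by A_55_P2057777 (adjusted p = 0.0835), -1.28 ± 0.26 SE as the mean of 3 probes (adjusted p = 0.0141) and -0.10 ± 0.12 SE by the T-rich probe (adjusted p = 0.63). Fgf10 (-2.82 ± 0.91 SE, adjusted p = 0.0767), Fgfr3 (-0.90 ± 0.28 SE, adjusted p = 0.0648), Fgf8 (0.40, adjusted p = 0.283), Fgf9 (-0.47, adjusted p = 0.727) and Fgf1 (-0.10, adjusted p = 0.956) did not pass. Fgf2 was at least 2.14-fold higher on the means without passing (log2 change 1.32 ± 0.50 SE, adjusted p = 0.124). It met the filter for testing only in the 19-day culture, where it was also highest.

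The 2 groups lie on different slides, so no value within a slide exists. With a term for slide, which the 8-day pair alone estimates, the log2 change of Fgfr2 was -1.63 (adjusted p = 0.273) and that of A_55_P1967022 -1.71 (adjusted p = 0.133). For Fgf20 that fit has no measurable size, since 8-day culture replicate 1 and both 19-day arrays were not well above background. Without 19-day culture replicate 1 the Fgf20 call was lost by a narrow margin (adjusted p = 0.0515), while Fgf10 was called (log2 change -4.39, adjusted p = 0.00688) and Fgfr2 kept its call. Without any other 1 array the Fgfr2 call was lost, with log2 changes over all such fits of -2.18 to -0.82 and adjusted p up to 0.124. Fgfr3 was called without E11.5 replicate 1 (log2 change -1.23, adjusted p = 0.0362). Cell type markers also differed. The stromal list averaged 2.55 and 2.35 in the 19-day culture, against 0.01 and -0.10 in E11.5 progenitors, with 6 to 7 and with 6 of its 7 genes above background. Of its genes 4 were higher in the 19-day culture (Pdgfra, Col1a1, Col3a1 and Pdgfrb) and 2 lower, Foxd1 (log2 change -6.95, adjusted p = 0.00985) and Tcf21 (log2 change -1.17, adjusted p = 0.0324), while Meis1 did not pass. Of 8 nephron progenitor markers 7 were lower in the 19-day culture. Their part in the lower Fgf20 and Fgfr2, and in the lower reading of Fgfr1 by A_55_P1967022, was not tested.

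Of the feedback and target genes 1 rose and 1 fell in the 19-day culture against E11.5 progenitors (median 0.33, against 0.01 over all genes). Etv4 read 1.15 and 2.32 in the 19-day culture, against 3.32 and 3.88 in E11.5 progenitors (log2 change -1.87 ± 0.41 SE, adjusted p = 0.0203). Spred1, a relative of the Sprouty inhibitors, gave 1.16 ± 0.31 SE (adjusted p = 0.0408). Etv5 gave -0.70 ± 0.20 SE and did not pass (adjusted p = 0.0504). Fgfrl1 fell by 2.02 ± 0.18 SE on the log2 scale (adjusted p = 0.00067), the 1 call among 3 other receptors (median -0.51). Fgf23 fell by 0.80 (adjusted p = 0.0381), the 1 call among 11 other ligands (median -0.18).

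Of the carriers 6 rose, 4 fell and 13 did not pass (median 0.20). Flrt3 fell most, with -3.32 and -0.86 in the 19-day culture, against 3.92 and 4.32 in E11.5 progenitors (log2 change -6.21 ± 0.78 SE, adjusted p = 0.00256), and Flrt1 fell by 4.07 (adjusted p = 0.0101). Flrt2 of the same family rose by 4.84 (adjusted p = 0.00142) and Sulf1 by 4.33 (adjusted p = 0.0122). Of 16 adaptors 2 rose, 1 fell and 13 did not pass (median -0.20). Shc1, an adaptor of receptor tyrosine kinases, rose by 1.44 (adjusted p = 0.014), the phosphatase Ptpn11 rose by 0.93 (adjusted p = 0.0209) and the MAP kinase kinase Map2k2 fell by 1.07 (adjusted p = 0.0184).

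Between the culture times, 0 of 9 members were called by limma, where 8.07% of all genes were called, 2.67% higher and 5.4% lower. An unadjusted p under 0.05 was found for 2 members, and the share of all genes at that looser limit was not counted. Fgfr2 was 3.19-fold lower on the means in the 19-day than in the 8-day culture and just missed the threshold (log2 change -1.67 ± 0.41 SE, adjusted p = 0.0503). Without 19-day culture replicate 1 it passed (-2.35 ± 0.27 SE, adjusted p = 0.0155). Fgf20 gave -3.39 ± 1.21 SE (adjusted p = 0.147). Both 19-day arrays were not well above background. Without 8-day culture replicate 1 Fgf20 was called (adjusted p = 0.0087), with 1 array in the 8-day arm assumed to vary like the other groups, and within slide 2 it was not (adjusted p = 0.204), in a fit that called 0 genes. The log2 changes of Fgf1, Fgf2, Fgf8, Fgf9 and Fgf10 were -0.73, 0.84, -0.24, -0.48 and -1.01, with adjusted p-values between 0.387 and 0.772. Those of Fgfr1 and Fgfr3 were -0.11 and -0.07 (adjusted p = 0.639 and 0.924). In the test of probes, which called 7.15% of them, the Fgf8 probe A_55_P2108109 gave -2.19 ± 0.57 SE (adjusted p = 0.0636) and the Fgfr1 probe A_55_P1967022 0.47 ± 0.29 SE (adjusted p = 0.422).

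Etv4 and Il17rd fell, while 0 feedback and target genes rose and 8 did not pass (median -0.26, against -0.01 over all genes). Etv4 read 1.15 and 2.32 in the 19-day culture, against 4.18 and 3.69 in the 8-day culture (log2 change -2.20 ± 0.41 SE, adjusted p = 0.0188). Il17rd read 1.94 and 3.12 in the 19-day culture, against 4.87 and 4.70 in the 8-day culture (log2 change -2.25 ± 0.39 SE, adjusted p = 0.0149). Both also passed in P0 progenitors against P0 non-progenitors. Of the 8 nephron progenitor markers 4 were lower in the 19-day culture than in the 8-day culture (median -2.84), and of the 7 stromal markers 3 were higher (median 2.91). Their part in the lower Etv4 and Il17rd was not tested. Fgfrl1 fell by 1.55 (adjusted p = 0.00426), the 1 call among 3 other receptors (median -0.49), and Fgf5 was at least 8.83-fold lower (adjusted p = 0.0116), the 1 call among 11 other ligands (median -0.44). Of the carriers 4 rose, 2 fell and 17 did not pass (median 0.58), with Sulf1 up by 4.36 (adjusted p = 0.0201), Flrt3 down (log2 change -4.15, adjusted p = 0.0198), the syndecan Sdc2 up by 2.34 (adjusted p = 0.0226) and the glypican Gpc1 down (log2 change -2.19, adjusted p = 0.00237). None of 16 adaptors was called (median 0.01).

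**Figure D4:**
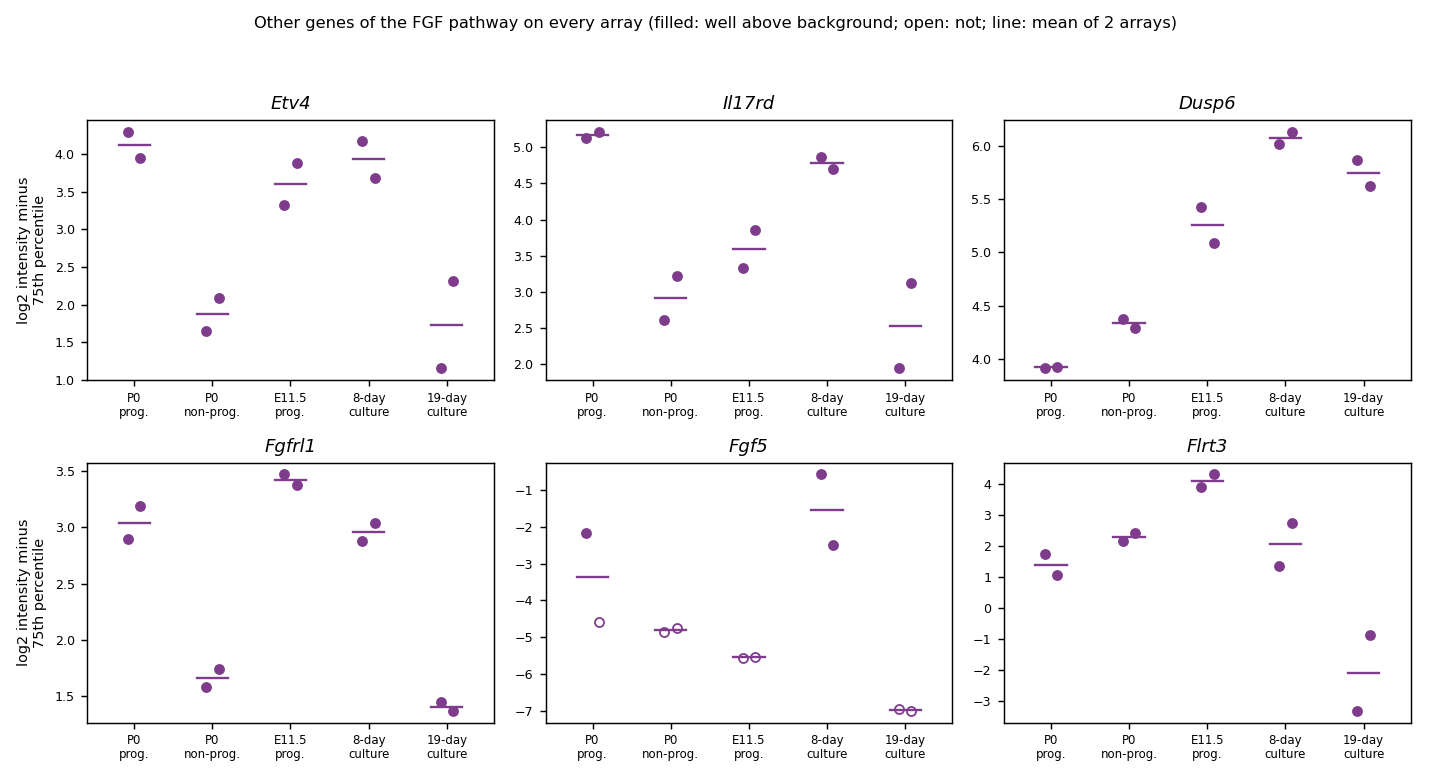
Signal of Etv4, Il17rd, Dusp6, Fgfrl1, Fgf5 and Flrt3 on every array (vertical axes, log2 intensity minus the array's 75th percentile, with a scale of its own in each panel) in P0 progenitors, P0 non-progenitors, E11.5 progenitors, 8-day culture and 19-day culture. Points are arrays, filled where well above background, and lines are means of 2 arrays; Etv4 and Il17rd are lower on both 19-day arrays than on both 8-day arrays.

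Over all 10 pairs of groups the tested members gave 19 calls, of which 6 belonged to the T-rich Fgfr1 probe, 4 each to Fgf9 and Fgf20, 3 to Fgfr2 and 1 each to Fgf1 and Fgf10, and Fgf2, Fgf8 and Fgfr3, each by its probe with the highest mean, gave none. In the 5 pairs not described above, 17.7% of all genes were called in E11.5 progenitors against P0 non-progenitors, 3.97% in the 8-day culture against P0 progenitors, 13.2% in the 8-day culture against P0 non-progenitors, 12.7% in the 19-day culture against P0 progenitors and 9.34% in the 19-day culture against P0 non-progenitors. The 6 Fgfr1 calls were all between a P0 group and the other groups, with log2 changes of 0.47 to 0.64 in size and the P0 group lower by that probe. In E11.5 progenitors against P0 non-progenitors A_55_P1967022 was called the same way (log2 change 1.68, adjusted p = 0.00912). Only in the cultures against P0 progenitors were other Fgfr1 probes called the opposite way. Against P0 progenitors the 8-day culture was lower by A_55_P1967022 (log2 change -2.47, adjusted p = 0.00907) and A_55_P2057777 (-3.17, adjusted p = 0.0348), where 3.5% of probes were called. Against P0 progenitors the 19-day culture was lower by A_55_P1967022 (-2.0, adjusted p = 0.00709) and A_55_P2057777 (-2.31, adjusted p = 0.0487), where 10.8% of probes were called. The 19-day and P0 arrays lay on different slides. For Fgf8, A_55_P2108109 was 5.05-fold higher in the 8-day culture than in P0 non-progenitors (log2 change 2.34, adjusted p = 0.0381), where 11.4% of probes were called. Genes most like a member over the 10 arrays were sought for the 5 members that were above background on both arrays of a group and whose group means spanned at least 2 units. The arrays share their groups, so each coefficient rests largely on 5 group means. Fgf20 was nearest to Mbtd1 (Pearson r = 0.986) and Arhgap39 (0.973). Fgf10 was nearest to Has2os (0.960), Armcx2 (0.955) and Olfr281 (0.950), and Fgf1 to Gm567 (0.939), Scaf4 (0.930) and Mrps33 (0.930). Fgfr2 was nearest to Smtnl2 (0.992), Csrp2 (0.967) and Sorl1 (0.944). Fgf9 was nearest to Kcnmb1 (0.998), Mall (0.997) and Atp6v1c2 (0.995), genes that were above background on only 2 to 3 arrays.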

How the data were processed

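Intensities were those of the deposited Agilent Feature Extraction output, version 11.5.1.1 per the submitters' processing notes, whose processed signal is background-subtracted within each array, per the file headers. The values of P0 progenitors replicate 2 had been saved with 3 significant digits. Log2 signals were reduced by each array's 75th percentile over 59305 non-control spots, outlier spots were dropped (14 among the members' spots), and spots of a probe were averaged. Symbols came from RefSeq for 28026 probes by accession, 3418 by symbol and 295 by synonym, and 23942 kept the design's name. A gene was its probe with the highest mean, tested when any group had a probe exceeding background on each of its arrays (26250 of 34607 genes). Where no array of a group was, the fold is a bound against each array's lowest signal well above background. limma 3.58.1 (R 4.3.3) fitted 5 group means to 10 arrays with an intensity trend, 5 residual and 2.49 prior degrees of freedom and 2-sided Benjamini-Hochberg adjustment at 0.05 over all genes. The procedure was tested on simulated data with changes planted in the 8-day culture against E11.5 progenitors. It recovered 11.9%, 34.3% and 54.5% of planted changes of 1, 2 and 3 log2 units, and 4 of its 71 calls were false. These changes were planted in 67, 67 and 66 of 26244 genes, with normal noise and no slide effect. The real comparisons called more genes, so these rates need not hold for them. The members and lists were chosen with earlier results of these data known. Every member was named, with up to 4 called genes of a pathway list, and genes that did not pass or were markers were named after their values were seen. Alternatives were other normalization, background correction, filters, probe rules, moderation, blocks for slide and replicate number, fewer groups, and each array left out. A further gene that the rule for likeness picks is not reported here.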

Additional observations from a re-analysis of the deposited data

Results flagged for a closer look

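Fgfr2 was picked out because its change against E11.5 progenitors ran in opposite directions at the culture times, with both 8-day arrays above and both 19-day arrays below the E11.5 arrays by A_55_P2094881. By its second probe, A_51_P432403, the 8-day arrays (-1.85 and -1.21) overlapped the E11.5 arrays (-1.30 and -1.83). By the first probe the 8-day change was 0.17 ± 0.41 SE and did not pass (adjusted p = 0.881). The 19-day change minus the 8-day change by that probe was -1.67 on the log2 scale. The test of that difference did not pass (adjusted p = 0.0503). Fgf7 was picked out because it had no test and yet was well above background on 19-day culture replicate 1, where it read -0.96, while replicate 2 of the same group read -6.94.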

How the results depend on the processing

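None of the 5 member calls in the 5 comparisons reversed under these settings, which use a gene's probe with the highest mean or average its probes. They could not show a reversal by another single probe. For Fgfr1 in P0 against E11.5 progenitors the other 2 probes gave 0.06 and 0.49, without passing. Among calls in the other pairs, Fgfr1 reversed with the mean of its probes in the 8-day culture against P0 progenitors (-1.67, adjusted p = 0.0158) and P0 non-progenitors (-0.37, adjusted p = 0.417) and in the 19-day culture against P0 progenitors (-1.26, adjusted p = 0.0193), and with quantile normalization in the 8-day culture against P0 non-progenitors (-0.04, adjusted p = 0.834). Over 10 fits that each leave out 1 array, the number of members called ran from 0 to 2 in P0 progenitors against P0 non-progenitors, 0 to 2 in P0 against E11.5 progenitors, 0 to 1 in the 8-day culture and 1 to 2 in the 19-day culture against E11.5 progenitors, 0 to 1 between the culture times, and 9 to 22 over all pairs. In P0 progenitors against P0 non-progenitors (2 called) 1 was called with quantile normalization, the replicate block or the slide block, and 0 with a filter on all arrays. In P0 against E11.5 progenitors (1 called) 0 were called with quantile normalization, without the intensity trend or with only the groups compared, and 2 on slide 1 alone. In the 8-day culture against E11.5 progenitors (0 called) 1 was called with the mean of probes, the slide block or slide 1 alone. In the 19-day culture against E11.5 progenitors (2 called) 1 was called with quantile normalization, no filter, a filter on all arrays, no trend, robust moderation, the replicate block, the slide block or only the groups compared. Between culture times (0 called) 1 was called with a floor on low values, normexp, the slide block or a filter on all arrays. Over all pairs (19 calls) quantile normalization gave 12, and the filter on all arrays, no trend and only the groups compared gave 11 each. Causes were not tested, except that the filter on all arrays removes Fgf20 and Fgf9. Correlations of same-numbered deviations were -0.01 to 0.03 over 10 pairs of groups, so no pairing by replicate number was seen over all genes. They cannot tell whether arrays of different groups shared a litter or a sort. Over all genes, P0 progenitors against P0 non-progenitors gave 2201 calls (50.5% higher), and 1265 without the trend (30.4%), 1435 with the filter on all arrays (68.0%) and 34.9% higher with quantile normalization. P0 against E11.5 progenitors gave 1036 (51.4%), and 447 without the trend (68.0%), 434 with only the groups compared and 65.4% higher with quantile normalization. The 8-day culture against E11.5 progenitors gave 1261, and 540 without the trend, 631 with the slide block, 683 on slide 1 and 0 with only the groups compared. The 19-day culture against E11.5 progenitors gave 4416, and 1488 with the slide block and 1297 with only the groups compared. The culture times gave 2119 (33.1%), 760 without the trend (51.2%), 45.3% higher with quantile normalization, and 0 on slide 2 or with only the groups compared. With normexp the median of all genes in the 19-day culture against E11.5 progenitors was -0.17, against 0.01. Signals near background limit Fgf2, Fgf7 and Fgf9, and a member that did not pass may have changed by several fold.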
